A study of Homo sapiens with 12 samples.

Results

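XPO1 and the Ran cycle were described here through 9 genes, XPO1, RAN, RANBP1, RANBP2, RANBP3, RANGAP1, RCC1, NXT1 and NUTF2. They were taken by gene symbol from a count table of 58302 human genes. Each symbol named 1 row, and all 9 genes were among the 16474 that passed the filter on low counts, which keeps a gene with enough counts in at least as many libraries as the smallest group has. RNA sequencing had been run on 4 groups of 3 libraries each: OCI-LY3 with selinexor, OCI-LY3 untreated, SU-DHL6 with selinexor, and SU-DHL6 untreated. OCI-LY3 and SU-DHL6 are established lines of diffuse large B-cell lymphoma, labelled as ABC-DLBCL and GCB-DLBCL, and the genotype label of every library is WT. The labels name 300 and 100 nM selinexor, 24 and 48 h of treatment and 10% and 20% serum, but tie none of these to a library, so dose, time and serum may differ between the lines. Each line is 1 cell line standing for its subtype, and the replicates are described as biological triplicates with no word on how the cultures were set up.

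XPO1 is a nuclear export receptor. It binds proteins that carry a leucine-rich export signal together with RAN bound to GTP, and carries them through the nuclear pore. RCC1, which sits on chromatin, loads RAN with GTP inside the nucleus, and RANGAP1, at the cytoplasmic face of the pore, makes RAN hydrolyse that GTP with the help of RANBP1 and RANBP2, so that cargo is released outside. RANBP3 is a nuclear cofactor of XPO1. NUTF2 returns RAN bound to GDP to the nucleus, and NXT1 is the small partner of NXF1 in messenger RNA export. Selinexor binds XPO1 in the groove that receives the export signal and blocks the loading of cargo.

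The libraries held 14210200 to 16405842 counts each, and Pearson's r between replicates was 0.975 to 0.980 on log2 counts per gene tested. In OCI-LY3, 5 of 6 B-cell markers reached 1 CPM (a read count scaled to the same library size for all). In SU-DHL6, 6 of 6 reached it. Of 4 germinal centre markers, 1 (BCL6) reached 1 CPM in every OCI-LY3 library, and 4 did in every SU-DHL6 library. MYBL1 and MME reached it in some OCI-LY3 libraries, at up to 1.95 and 1.89 CPM. Of 4 activated-type markers, 4 reached 1 CPM in every OCI-LY3 library, and 3 did in every SU-DHL6 library. These 4 summed to 3189 to 3274 CPM in untreated OCI-LY3 and 720 to 816 CPM in untreated SU-DHL6. Summed T-cell, myeloid and erythroid markers stayed at or below 2.17, 4.60 and 0.226 CPM in every library. The 4 fibroblast markers summed to 28.0 to 38.4 CPM in treated and 22.1 to 23.3 CPM in untreated OCI-LY3, nearly all from COL1A1. In SU-DHL6 they summed to at most 0.267 CPM. The part of these markers in the results below was not tested.

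The sequences around the start sites of XPO1, RAN, RANBP2 and RANBP3 are shown because these 4 genes had the largest differences between the lines in their response to selinexor with TMM factors and with library totals. With GC and length offsets, RANBP1 (0.30) exceeded XPO1 (0.27). The sequences are RefSeq windows on GRCh38.p14, read 5′ to 3′ on the gene's strand, from 250 bases before to 50 bases after the annotated start. Windows were matched for 8 of the 9 genes. Capitals mark matches, on either strand, to 7 short motifs. They were the CCAAT box, the GC box GGGCGG, the E-box CACGTG, the E2F-type site TTTCCCGC, its relative TTTGGCGC, the ETS-type site CGGAAGTG and the palindrome of NRF1.
XPO1 (chr2:61538307-61538606, minus strand): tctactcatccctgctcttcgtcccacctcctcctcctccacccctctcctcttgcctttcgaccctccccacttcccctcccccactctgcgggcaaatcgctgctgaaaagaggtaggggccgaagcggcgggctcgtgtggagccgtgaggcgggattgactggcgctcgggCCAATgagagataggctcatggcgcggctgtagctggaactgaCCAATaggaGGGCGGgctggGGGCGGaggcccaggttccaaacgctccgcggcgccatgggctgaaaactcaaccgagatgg
RAN (chr12:130871816-130872115, plus strand): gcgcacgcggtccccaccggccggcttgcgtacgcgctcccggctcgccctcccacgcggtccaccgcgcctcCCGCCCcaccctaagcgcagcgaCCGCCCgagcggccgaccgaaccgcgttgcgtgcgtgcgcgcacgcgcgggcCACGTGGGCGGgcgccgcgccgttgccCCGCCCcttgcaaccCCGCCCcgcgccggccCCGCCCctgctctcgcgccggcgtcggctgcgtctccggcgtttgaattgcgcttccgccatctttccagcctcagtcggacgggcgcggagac
RANBP2 (chr2:108719232-108719531, plus strand): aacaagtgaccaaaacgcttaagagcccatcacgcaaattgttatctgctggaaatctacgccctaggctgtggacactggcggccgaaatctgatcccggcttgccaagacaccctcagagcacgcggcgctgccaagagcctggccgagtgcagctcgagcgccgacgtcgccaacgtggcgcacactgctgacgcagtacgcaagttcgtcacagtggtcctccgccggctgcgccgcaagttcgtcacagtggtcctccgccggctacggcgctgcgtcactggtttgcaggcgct
RANBP3 (chr19:5978091-5978390, minus strand): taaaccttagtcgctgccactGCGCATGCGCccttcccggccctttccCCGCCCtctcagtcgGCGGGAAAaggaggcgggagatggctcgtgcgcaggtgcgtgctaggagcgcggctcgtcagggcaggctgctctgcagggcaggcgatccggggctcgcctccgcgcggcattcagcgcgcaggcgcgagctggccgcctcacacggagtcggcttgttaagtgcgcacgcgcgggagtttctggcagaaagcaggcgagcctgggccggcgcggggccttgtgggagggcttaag

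The XPO1 window shown, the nearer of 2 to the gene's annotated start, held CCAAT, the box bound by NF-Y, 75 and 32 bases before the start, and GGGCGG, a GC box of the kind SP1 binds, 23 and 12 bases before it. The other XPO1 window (chr2:61537038-61537337), not shown, held CACGTG 44 bases before its start. CCAAT occurred in 34.6% and GGGCGG in 45.0% of all 35116 windows. The RAN window held 6 matches to GGGCGG and 1 to CACGTG, the E-box that MYC can bind, which occurred in 7.26% of all windows. The RANBP3 window held the NRF1 palindrome, which occurred in 1.24% of windows, with 1 match to GGGCGG and 1 to TTTCCCGC, an E2F-type site found in 1.63% of windows. None of the 7 was in the RANBP2 window. In the RAN window CACGTG and 1 GGGCGG share a base, and no other matches overlap in the 4 windows. TTTGGCGC and CGGAAGTG, in 0.652% and 4.001% of all windows, were in none of the 4. A match is only a stretch of letters, and these data do not show what binds there.

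Levels below are CPM relative to TMM-scaled library totals, and differences are log2 fold changes with their standard error (SE) from an edgeR quasi-likelihood fit to all 12 libraries. A gene was called at a Benjamini-Hochberg adjusted p under 0.05 over all genes tested. Because these are shares of each library, fewer cells making a transcript and less of it per cell cannot be told apart.

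With selinexor, XPO1 and RANBP3 rose in OCI-LY3, and RANBP1, RANGAP1, RCC1 and NXT1 fell, while RAN, RANBP2 and NUTF2 did not pass the test. These 6 of 9 stand against 44.4% of all tested genes called, with 22.2% higher and 22.2% lower. In SU-DHL6, XPO1 and RANBP2 rose, and RAN, RANBP1, RANBP3, RANGAP1, RCC1 and NXT1 fell, while NUTF2 did not pass. These 8 of 9 stand against 43.2% of tested genes called, 20.4% higher and 22.8% lower. That split depended on the scaling: with library totals in place of TMM factors, 5451 genes were called higher and 2367 lower in SU-DHL6. The TMM factors were 1.17 to 1.23 in treated and 0.974 to 1.04 in untreated SU-DHL6, and 0.865 to 0.887 in treated and 0.944 to 0.962 in untreated OCI-LY3. The median log2 fold change of the 9 genes was -0.06 in OCI-LY3 and -0.76 in SU-DHL6, against a median of 0.00 over all genes in both lines.

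**Figure D1:**
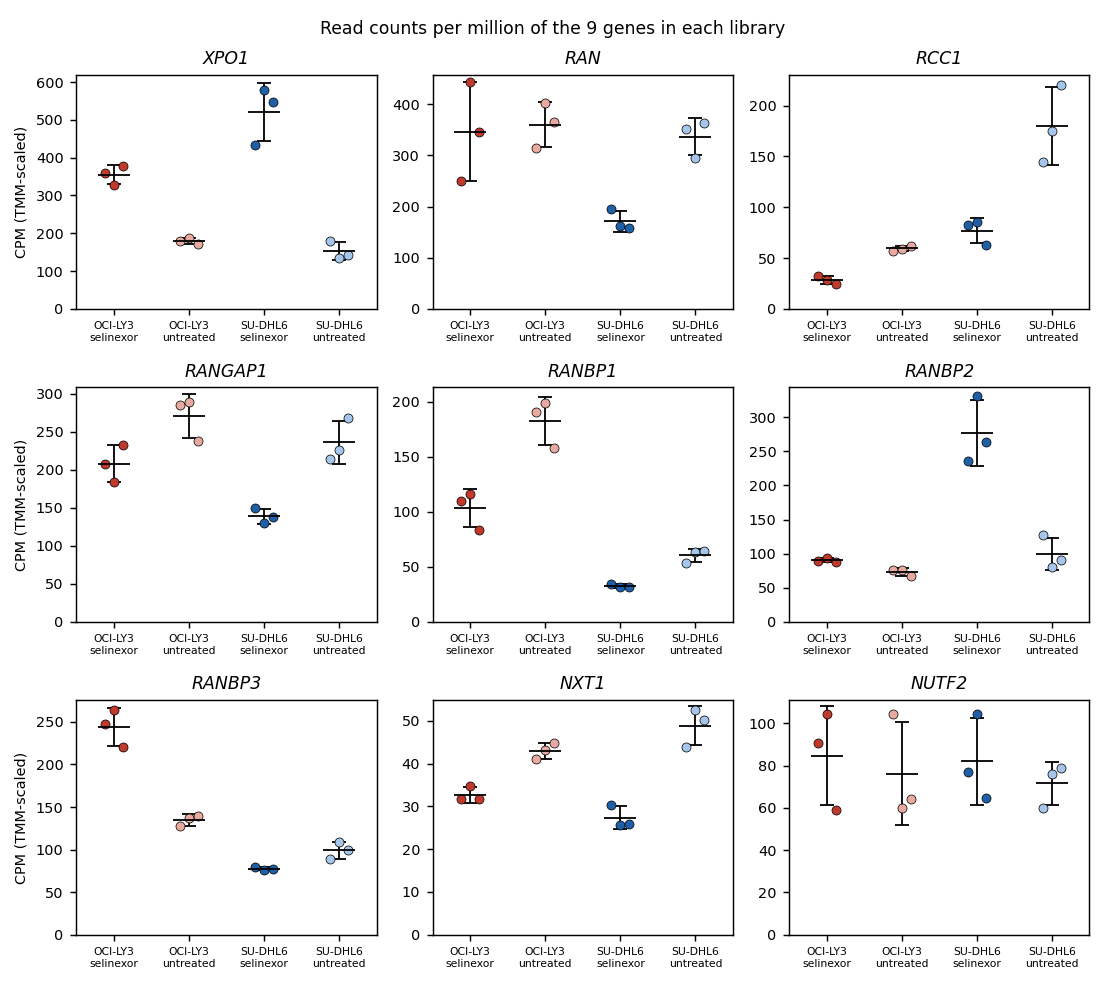
Level of each of the 9 genes in every library, in CPM on a linear axis from 0, with 1 point per library and a bar for the mean ± SD of the 3 libraries of a group. XPO1 lies between 329 and 377 CPM in treated OCI-LY3 and between 434 and 579 CPM in treated SU-DHL6, above all untreated libraries, and NUTF2 overlaps in all groups.

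XPO1, the export receptor and the drug's target, was higher in every treated library than in any untreated one. It stood at 358, 329 and 377 CPM in treated OCI-LY3, against 180.2, 186 and 171 CPM in untreated OCI-LY3. In SU-DHL6 it stood at 434, 579 and 547 CPM treated, against 179, 136 and 143 CPM untreated. The log2 fold change was 0.99 ± 0.13 (SE, adjusted p = 2.41e-05) in OCI-LY3 and 1.77 ± 0.13 (adjusted p = 1.1e-07) in SU-DHL6. Among all tested genes, 88.9% had a smaller log2 fold change than XPO1 in OCI-LY3, and 96.9% did in SU-DHL6, where 502 genes had a larger one. The first untreated SU-DHL6 library was the nearest of its group to the treated libraries for XPO1, RANBP1, RANBP2, RANBP3, RANGAP1, RCC1 and NXT1. Without it the SU-DHL6 fold change of XPO1 was 1.89 and was still called. XPO1 (ENSG00000082898, chromosome 2, 61477849 to 61538626, minus strand, GRCh38) had a GC content of 37.9% in its longest transcript, the lowest of the 9 genes. The count-weighted GC content of the libraries was 48.9% to 49.3% in treated and 49.7% to 50.7% in untreated SU-DHL6, and 50.6% to 51.2% in treated and 50.7% to 51.0% in untreated OCI-LY3. With offsets for GC content and transcript length, an alternative chosen after seeing the data, the XPO1 fold changes were 1.20 in OCI-LY3 and 1.47 in SU-DHL6, both still called.

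RAN, the GTPase itself (ENSG00000132341, chromosome 12, 130871879 to 130877678, plus strand), fell in SU-DHL6 to 195, 161 and 158 CPM with selinexor, against 352, 296 and 363 CPM untreated. The log2 fold change there was -0.97 ± 0.18 (adjusted p = 0.000601), and the groups did not overlap. In OCI-LY3 the treated libraries were far apart, at 251, 444 and 346 CPM, against 314, 402 and 364 CPM untreated. The treated values lay on both sides of the untreated ones, and the log2 fold change of -0.06 ± 0.17 (adjusted p = 0.834) had a 95% confidence interval of -0.43 to 0.32. Leaving out 1 library at a time moved it between -0.27 and 0.14. Reads counted for 9 RAN pseudogenes came to 1.41% to 4.12% of those counted for RAN.

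RCC1, the exchange factor that loads RAN with GTP (ENSG00000180198, chromosome 1, 28505943 to 28539300, plus strand), had the largest fall of the 9 genes in both lines. It was at 32.3, 28.1 and 24.0 CPM in treated OCI-LY3, against 57.2, 58.8 and 62.3 CPM in untreated OCI-LY3, a log2 fold change of -1.08 ± 0.16 (adjusted p = 9.92e-05). Treated SU-DHL6 had 82.8, 85.2 and 63.0 CPM, against 145, 175 and 221 CPM in untreated SU-DHL6, a log2 fold change of -1.23 ± 0.16 (adjusted p = 2.73e-05). Neither line showed overlap between treated and untreated libraries. The non-coding RNA gene SNHG3 lies within the RCC1 locus on the same strand and averaged 92.5 ± 7.94 CPM in treated and 54.0 ± 6.50 CPM in untreated SU-DHL6 (SD, n = 3 each). In OCI-LY3, SNHG3 averaged 37.0 ± 3.46 CPM treated and 49.7 ± 3.92 CPM untreated (SD, n = 3 each). How reads shared by RCC1 and SNHG3 were assigned is not given in the sources used here, so the RCC1 values are uncertain to that extent. SNHG3 was looked up because of this overlap, and no test is given for it.

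RANGAP1, the protein that switches RAN off by driving GTP hydrolysis (ENSG00000100401, chromosome 22, 41245611 to 41286251, minus strand), was at 208, 184 and 233 CPM in treated OCI-LY3, against 285, 289.7 and 237 CPM in untreated OCI-LY3. The highest treated library lay just under the lowest untreated one, and the log2 fold change was -0.38 ± 0.12 (adjusted p = 0.0184). This call was lost without either of the first 2 treated or either of the first 2 untreated OCI-LY3 libraries, with adjusted p from 0.0548 to 0.0981, and with the replicate number as a block (adjusted p = 0.0529). In SU-DHL6, RANGAP1 was at 149, 129.6 and 138 CPM treated, against 214, 226 and 268 CPM untreated. The log2 fold change there was -0.76 ± 0.12 (adjusted p = 0.000151), with a clear gap between the groups.

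The balance of reads between the 2 switches of RAN, RCC1 and RANGAP1, was lower with selinexor in both lines. The ratio of RCC1 to RANGAP1 reads was 0.156, 0.153 and 0.103 in treated OCI-LY3, against 0.201, 0.203 and 0.263 in untreated OCI-LY3. In SU-DHL6 it was 0.554, 0.657 and 0.457 treated, against 0.676, 0.777 and 0.823 untreated. Treated and untreated values did not overlap in either line, and every SU-DHL6 ratio was above every OCI-LY3 ratio. The RCC1 reads in these ratios carry the uncertainty over SNHG3, whose counts over the 12 libraries came to 69.8% of those of RCC1. The ratio of XPO1 to RAN reads was 1.43, 0.741 and 1.09 in treated OCI-LY3, against 0.573, 0.463 and 0.469 untreated. In SU-DHL6 it was 2.22, 3.59 and 3.46 treated, against 0.510, 0.459 and 0.393 untreated. XPO1 thus had fewer reads than RAN in all 6 untreated libraries and in 1 treated OCI-LY3 library, and more in the other treated ones. These ratios compare reads, which also depend on transcript length, so only their change within a pair of genes can be read, and they were not tested.

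RANBP1, a cytoplasmic helper of RANGAP1 that takes RAN with GTP off export receptors (ENSG00000099901, chromosome 22, 20115938 to 20127357, plus strand), fell in both lines. It was at 109.7, 116 and 83.4 CPM in treated OCI-LY3, against 191, 199 and 158 CPM in untreated OCI-LY3, a log2 fold change of -0.83 ± 0.13 (adjusted p = 0.000141). The SU-DHL6 values were 34.1, 32.0 and 31.3 CPM treated, against 53.8, 63.1 and 63.9 CPM untreated, a log2 fold change of -0.89 ± 0.13 (adjusted p = 9.65e-05). All treated libraries were below all untreated ones of their line, and all SU-DHL6 libraries were below all OCI-LY3 libraries. TRMT2A overlaps RANBP1 on the other strand and averaged 51.8 CPM in treated and 51.7 CPM in untreated OCI-LY3, and 17.6 CPM in treated and 20.0 CPM in untreated SU-DHL6. The strand setting of the counting is not given in the sources used here, so some of the RANBP1 reads cannot be told apart from TRMT2A reads. Reads of 4 RANBP1 pseudogenes came to 5.66% to 10.9% of those of RANBP1.

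RANBP2, the large pore protein of the cytoplasmic filaments that holds RANGAP1 and binds RAN (ENSG00000153201, chromosome 2, 108719481 to 108785811, plus strand), rose in SU-DHL6. It was at 236, 331 and 264 CPM in treated SU-DHL6, against 127, 80.8 and 90.6 CPM in untreated SU-DHL6. The log2 fold change was 1.48 ± 0.16 (adjusted p = 4.95e-06), larger than in 95.3% of tested genes. In OCI-LY3 it was at 89.8, 93.5 and 87.1 CPM treated, against 75.9, 75.7 and 66.6 CPM untreated. Those groups did not overlap either, yet the log2 fold change of 0.31 ± 0.16 did not pass the test in the 12-library fit (adjusted p = 0.126, 95% confidence interval -0.03 to 0.64). It passed in a fit to the OCI-LY3 libraries alone (0.30, adjusted p = 0.0127), and the GC and length offsets also gave a call (0.59, adjusted p = 3.15e-05). RANBP2 had a GC content of 39.2%, close to that of XPO1, and with those offsets its SU-DHL6 fold change was 1.06. Counted by groups that did not overlap, 7 of the 9 genes stood apart in OCI-LY3, against 57.5% of tested genes, and 8 of 9 did in SU-DHL6, against 51.1%.

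RANBP2 has 7 RGPD relatives in the table that are near copies of part of it, so its reads can be split among them. Summed, the RGPD genes had 25.9% to 32.9% of the RANBP2 count in treated OCI-LY3, 30.8% to 37.8% in untreated OCI-LY3, 37.7% to 49.6% in treated SU-DHL6 and 39.6% to 51.2% in untreated SU-DHL6. In SU-DHL6 the summed RGPD level was 123 ± 9.11 CPM treated and 45.5 ± 12.2 CPM untreated, and RANBP2 with its copies came to 399.9 ± 53.5 CPM treated and 145 ± 35.6 CPM untreated (SD, n = 3 each). In OCI-LY3 the RGPD sum was 25.8 ± 2.75 CPM treated and 25.5 ± 2.43 CPM untreated (SD, n = 3 each). The near-equal sums hid opposite moves of single copies. Mean CPM was higher treated than untreated for RGPD1 (8.76 and 5.81) and RGPD2 (10.7 and 7.37). It was lower treated for RGPD5 (2.51 and 6.42), RGPD6 (1.60 and 2.67) and RGPD8 (1.14 and 2.13). RGPD3 and RGPD4 averaged under 1 CPM in both OCI-LY3 groups. RANBP2 with its copies came to 116 ± 2.96 CPM in treated and 98.3 ± 6.14 CPM in untreated OCI-LY3 (SD, n = 3 each). The higher SU-DHL6 level was thus seen in the sum as well as in RANBP2 alone.

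RANBP3, the nuclear cofactor that helps XPO1 bind cargo and RAN (ENSG00000031823, chromosome 19, 5916139 to 5978142, minus strand), went opposite ways in the lines. It was at 247, 264 and 221 CPM in treated OCI-LY3, against 127, 137 and 139 CPM in untreated OCI-LY3, a log2 fold change of 0.86 ± 0.10 (adjusted p = 7.9e-06). In SU-DHL6 it was at 79.4, 76.0 and 76.8 CPM treated, against 89.4, 109 and 98.96 CPM untreated, a log2 fold change of -0.36 ± 0.10 (adjusted p = 0.00907). Both lines showed a gap between treated and untreated libraries, wide in OCI-LY3 and narrow in SU-DHL6. The fall in SU-DHL6 was lost with library totals (-0.09, adjusted p = 0.451), and the GC and length offsets ended it too (-0.08, adjusted p = 0.312), while the rise in OCI-LY3 kept its call at 0.74 and 0.81. With library totals the median of all tested genes moved to 0.27 in SU-DHL6, and RANBP3 lay 0.35 below that median. Library totals shift all genes by nearly the same amount, so this distance is no separate support for a fall.

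The level of RANBP3 relative to XPO1 was lower with selinexor in SU-DHL6, and overlapped between treated and untreated OCI-LY3. RANBP3 reads per XPO1 read were 0.689, 0.804 and 0.585 in treated OCI-LY3, against 0.706, 0.737 and 0.816 in untreated OCI-LY3, with overlap. In SU-DHL6 they were 0.183, 0.131 and 0.140 treated, against 0.498, 0.802 and 0.693 untreated, with a wide gap. RANBP1 reads per XPO1 read were 0.306, 0.353 and 0.221 in treated OCI-LY3, against 1.06, 1.07 and 0.926 untreated. In SU-DHL6 they were 0.0787, 0.0552 and 0.0572 treated, against 0.300, 0.465 and 0.448 untreated. RANBP1 was therefore lower relative to XPO1 with selinexor in both lines, with no overlap between treated and untreated libraries.

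NXT1, the partner of NXF1 in messenger RNA export (ENSG00000132661, chromosome 20, 23350736 to 23354777, plus strand), fell in both lines. It was at 31.6, 34.7 and 31.6 CPM in treated OCI-LY3, against 41.1, 43.1 and 44.8 CPM in untreated OCI-LY3, a log2 fold change of -0.40 ± 0.11 (adjusted p = 0.00881). In SU-DHL6 it was at 30.4, 25.6 and 25.9 CPM treated, against 43.7, 52.5 and 50.3 CPM untreated, a log2 fold change of -0.84 ± 0.11 (adjusted p = 3.07e-05). Treated libraries were below untreated ones in both lines with little spread.

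NUTF2, the carrier that brings RAN with GDP back into the nucleus (ENSG00000102898, chromosome 16, 67846732 to 67872567, plus strand), passed the test in neither line. It was at 90.8, 104 and 58.7 CPM in treated OCI-LY3, against 104, 60.0 and 64.2 CPM in untreated OCI-LY3, and the 95% confidence interval of its log2 fold change of 0.15 ± 0.27 (adjusted p = 0.687) ran from -0.44 to 0.74. The SU-DHL6 libraries gave 77.0, 105 and 64.4 CPM treated, against 60.0, 76.1 and 78.7 CPM untreated, a log2 fold change of 0.20 ± 0.27 (adjusted p = 0.593) with an interval of -0.39 to 0.78. Replicates of 1 group differed by up to 1.78-fold, in treated OCI-LY3, so falls of the size seen for RANGAP1 and NXT1 in OCI-LY3 lay within its interval in that line. The SU-DHL6 interval did not reach the falls of those genes in SU-DHL6. CENPT overlaps NUTF2 on the other strand and averaged 25.5 CPM in treated and 19.8 CPM in untreated OCI-LY3, and 33.6 CPM in treated and 37.2 CPM in untreated SU-DHL6.

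**Figure D2:**
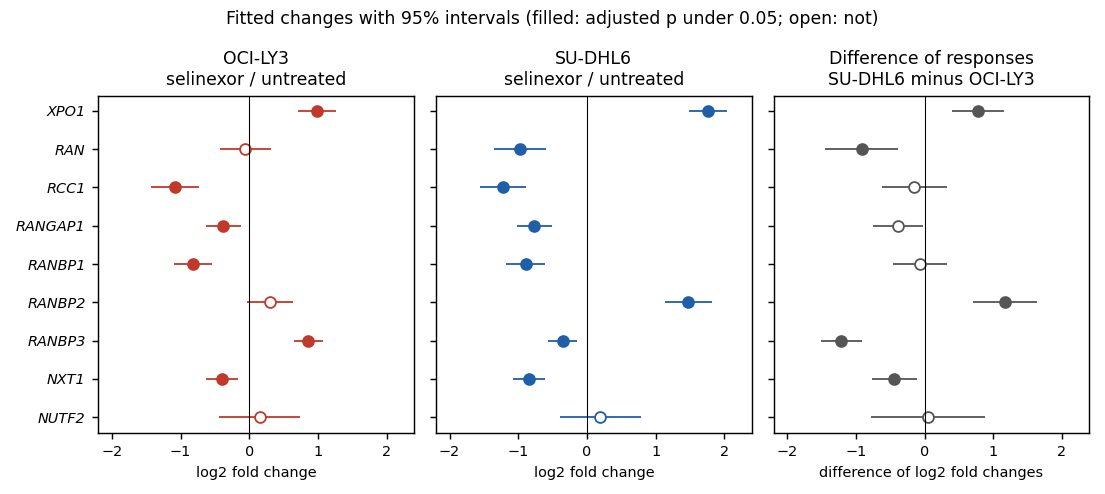
Log2 fold change of each gene with its 95% confidence interval, for selinexor against untreated in each line and for the difference of the responses, with filled points for genes past the threshold. XPO1 is above 0 in both lines (0.99 in OCI-LY3 and 1.77 in SU-DHL6), RANBP3 lies on opposite sides of 0, and RCC1, RANBP1, RANGAP1 and NXT1 lie below 0 in both.

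Whether the lines responded differently was tested gene by gene as the SU-DHL6 response minus the OCI-LY3 response. Of the 9 genes, 5 were called, against 36.9% of all tested genes, 17.0% higher and 19.9% lower. With library totals that background was 4891 genes higher and 1817 lower, 6708 of 16474 in all, and 3 of the 9 genes were called. With GC and length offsets it was 6252 genes, and 3 of the 9. XPO1 rose further in SU-DHL6, with a difference of 0.78 ± 0.18 (adjusted p = 0.00325), and so did RANBP2, with 1.17 ± 0.22 (adjusted p = 0.000885). The differences of RAN, RANBP3 and NXT1 were negative, at -0.92 ± 0.25 (adjusted p = 0.0106), -1.21 ± 0.14 (adjusted p = 1.62e-05) and -0.44 ± 0.15 (adjusted p = 0.0366). For RANBP1 the difference was -0.07 ± 0.18 (95% confidence interval -0.46 to 0.33), for RCC1 -0.15 ± 0.22 (-0.63 to 0.33), for RANGAP1 -0.39 ± 0.17 (-0.75 to -0.02, adjusted p = 0.0897) and for NUTF2 0.04 ± 0.38 (-0.79 to 0.87). Each of these intervals leaves room for a difference of the size called for NXT1.

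The differences were not equally firm. RANBP3 and RANBP2 were called in all 20 fits of the difference, but the RANBP2 difference shrank to 0.46 (adjusted p = 0.0043) with GC and length offsets. The XPO1 difference shrank to 0.27 (adjusted p = 0.0631) with those offsets. Library totals moved the median difference of all tested genes to 0.35. The values of the genes themselves with library totals were 1.16 for XPO1, -0.55 for RAN (adjusted p = 0.0979) and -0.06 for NXT1 (adjusted p = 0.790). Relative to that median they were 0.81 for XPO1, -0.90 for RAN and -0.42 for NXT1. Leaving out the TMM factors shifts all genes by nearly the same amount. The values relative to the median therefore had to lie close to those with TMM factors, and they are no separate support. The NXT1 difference was close to 0 with the offsets, and its call was also lost with the block, with no filter, and without any 1 of 8 of the 12 libraries.

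**Figure D3:**
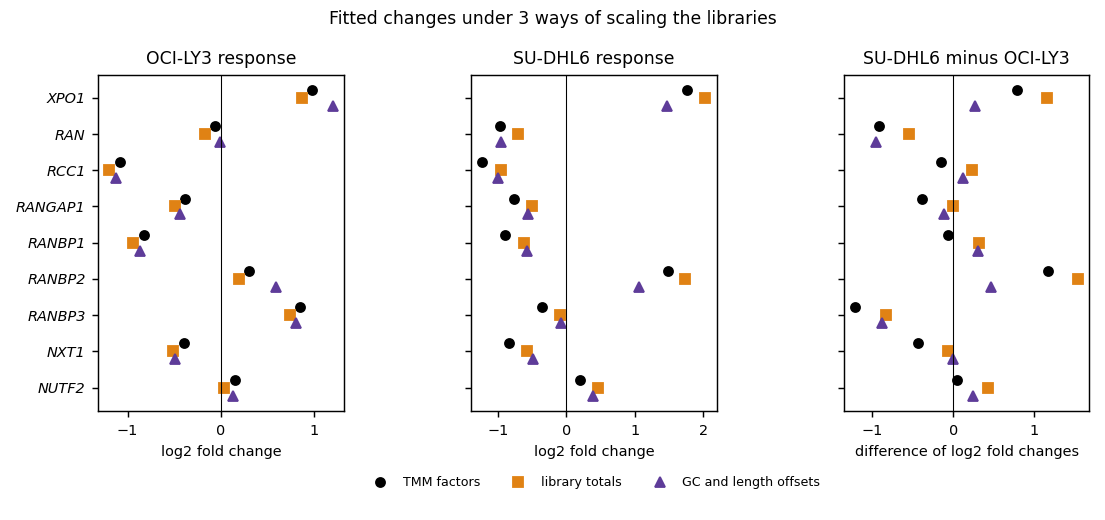
Log2 fold changes of the 9 genes in each line, and the SU-DHL6 minus OCI-LY3 difference, with TMM factors, with library totals, and with GC and length offsets. The XPO1 rise stays above 0 in both lines under all 3, and its difference between the lines is 0.78 with TMM factors, 1.16 with library totals, where the median of all genes is 0.35, and 0.27 with the offsets. RANBP3 in SU-DHL6 is at -0.36, -0.09 and -0.08 under the same 3 settings.

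Before treatment the lines differed in 4 of the 9 genes, against 67.3% of all tested genes, 33.6% higher and 33.7% lower in OCI-LY3. RANBP1 was higher in untreated OCI-LY3 than in untreated SU-DHL6 by a log2 fold change of 1.60 ± 0.13 (adjusted p = 6.89e-08), at 183 ± 21.7 CPM in OCI-LY3 and 60.3 ± 5.63 CPM in SU-DHL6 (SD, n = 3 each). RCC1 was lower in untreated OCI-LY3 by as much, with a log2 fold change of -1.60 ± 0.16 (adjusted p = 5.44e-07), at 59.4 ± 2.61 CPM in OCI-LY3 and 180.3 ± 38.2 CPM in SU-DHL6. RANBP3 was higher in untreated OCI-LY3 (0.44 ± 0.10, adjusted p = 0.00103), but not with GC and length offsets (0.08, adjusted p = 0.246). RANBP2 was lower (-0.45 ± 0.16, adjusted p = 0.0200), but was not called without the third OCI-LY3 library (-0.39, adjusted p = 0.0751) or the first SU-DHL6 library (-0.24, adjusted p = 0.118). XPO1 differed by 0.23 ± 0.13 (adjusted p = 0.118), at 179 ± 7.77 CPM in OCI-LY3 and 153 ± 23.5 CPM in SU-DHL6, and without the first SU-DHL6 library by 0.36 (adjusted p = 0.0159). RAN was at 360.3 CPM in OCI-LY3 and 337 CPM in SU-DHL6, with a log2 fold change of 0.10 ± 0.17 (95% confidence interval -0.28 to 0.47).

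Under selinexor, 8 of the 9 genes differed between the lines, against 72.0% of all tested genes, 36.2% higher and 35.8% lower in OCI-LY3. With library totals the background was 4317 genes higher and 8165 lower. RANBP3 was at 244 ± 21.9 CPM in treated OCI-LY3 and 77.4 ± 1.79 CPM in treated SU-DHL6 (SD, n = 3 each), a log2 fold change of 1.66 ± 0.10 (adjusted p = 1.8e-09). RANBP1 (1.67 ± 0.13), RAN (1.02 ± 0.18) and RANGAP1 (0.58 ± 0.12) were also higher in treated OCI-LY3, with adjusted p of 4.41e-08, 0.000155 and 0.00052. RANBP2 (-1.62 ± 0.16), RCC1 (-1.45 ± 0.16) and XPO1 (-0.55 ± 0.12) were lower there, with adjusted p of 3.9e-07, 1.6e-06 and 0.00117. NXT1 was called higher in treated OCI-LY3 by 0.26 ± 0.11 (adjusted p = 0.0465). Library totals moved the median of all tested genes in this comparison to -0.47, and GC and length offsets moved it to -0.22. Library totals shift all genes by nearly the same amount, so values relative to their median are no separate support. Relative to those medians RANGAP1 lay at 0.61 with library totals, where its own value was 0.14. It lay at 0.18 with the offsets, where its own value was -0.05 (adjusted p = 0.753). NXT1 lay 0.29 above the median with library totals, where its own value was -0.19. It lay at -0.03 from the median with the offsets, where its own value was -0.25 (adjusted p = 0.00742). The XPO1 value with the offsets was -0.11 (adjusted p = 0.194), or 0.11 relative to the median. The value of NXT1 thus turned sign both with library totals and with the offsets. With the offsets that of RANGAP1 turned sign too, and that of XPO1 was no longer called.

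To set the genes beside each other, levels were divided by the length of the longest GENCODE release 29 transcript, in CPM per kilobase. RAN had the highest such level in 3 of the 4 groups, at 130.3 ± 36.3 in treated OCI-LY3, 135 ± 16.6 in untreated OCI-LY3 and 127 ± 13.5 in untreated SU-DHL6 (SD, n = 3 each). In treated SU-DHL6, XPO1 was highest at 76.8 ± 11.3, followed by RAN at 64.4 ± 7.67, and their libraries overlapped. XPO1 had been the eighth of the 9 in untreated SU-DHL6, at 22.5 ± 3.47, and was the third in treated OCI-LY3 at 52.4 ± 3.61 and the seventh in untreated OCI-LY3 at 26.4 ± 1.15. RANBP2 was the lowest per kilobase in treated OCI-LY3 (7.69 ± 0.27), untreated OCI-LY3 (6.21 ± 0.45) and untreated SU-DHL6 (8.48 ± 2.06). In treated SU-DHL6 the lowest was RANBP1, at 14.9 ± 0.67.

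Below RAN the order differed between the lines. In treated OCI-LY3 it ran RANBP3 (75.5), XPO1 (52.4), RANGAP1 (49.3), RANBP1 (47.4), NUTF2 (32.5), NXT1 (29.1) and RCC1 (9.90). XPO1, RANGAP1 and RANBP1 in that row lay within 1 SD of each other, as did NUTF2 and NXT1. In untreated OCI-LY3 it ran RANBP1 (84.0), RANGAP1 (64.1), RANBP3 (41.7), NXT1 (38.3), NUTF2 (29.2), XPO1 (26.4) and RCC1 (20.9). NXT1, XPO1 and RCC1 in that row each lay within 1 SD of NUTF2, by the larger SD of the pair. In treated SU-DHL6, RANGAP1 (32.9), NUTF2 (31.5), RCC1 (27.1), NXT1 (24.3), RANBP3 (23.9) and RANBP2 (23.6) followed RAN within a narrow range. In untreated SU-DHL6 it ran RCC1 (63.4), RANGAP1 (55.9), NXT1 (43.5), RANBP3 (30.6), RANBP1 (27.7), NUTF2 (27.5) and XPO1 (22.5), where RCC1 and RANGAP1 lay within 1 SD of each other, as did RANBP3, RANBP1 and NUTF2. RCC1 was the eighth in both OCI-LY3 groups by this length. Per kilobase of the merged exons of a gene, RCC1 (7.24) lay below RANBP2 (7.33) in treated OCI-LY3. By that length RANGAP1 (38.9) also lay above RANBP3 (32.8) and XPO1 (30.3) in that group. The order depends on which transcript is used for the length, since the expressed isoforms are not known from a gene-level table.

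**Figure D4:**
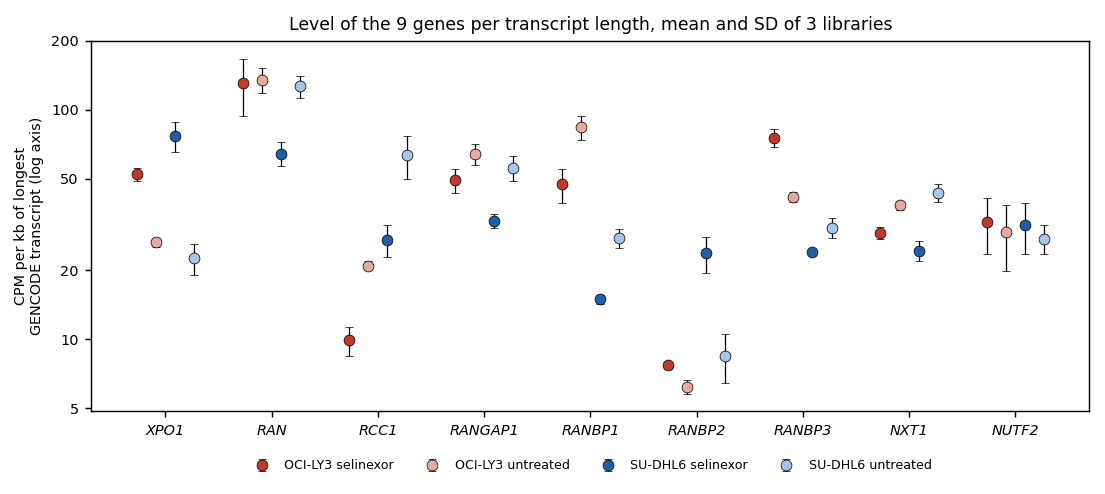
Level of each gene in CPM per kilobase of its longest annotated transcript, by group, as the mean ± SD of 3 libraries on a log axis. RAN is highest in 3 groups at 127 to 135, and XPO1 is highest in treated SU-DHL6 at 76.8.

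The other genes of nuclear transport were counted by lists, to be read against the 22.2% of all tested genes that rose and the 22.2% that fell in OCI-LY3, and the 20.4% and 22.8% in SU-DHL6. Of 6 tested exportins other than XPO1, 4 fell in OCI-LY3 and the other 2 did not pass the test, with a median log2 fold change of -0.63, and 3 fell and 1 rose in SU-DHL6, with a median of -0.07. XPOT, which exports transfer RNA, fell by 1.42 ± 0.10 on the log2 scale in OCI-LY3 and by 0.47 ± 0.10 in SU-DHL6 (adjusted p = 8.49e-08 and 0.00147). XPO5, the exporter of microRNA precursors, fell by 1.11 ± 0.08 in OCI-LY3 and by 0.23 ± 0.08 in SU-DHL6. Of 11 importins and transportins, 8 fell and 1 rose in OCI-LY3 (median -0.62), and 3 fell in SU-DHL6, where the other 8 did not pass (median -0.02). KPNB1, the importin that carries most classical import cargo, fell by 1.33 ± 0.12 in OCI-LY3 and by 0.49 ± 0.12 in SU-DHL6 (adjusted p = 8.49e-07 and 0.00406), and IPO5, another import receptor, fell by 0.96 ± 0.09 in OCI-LY3 and by 0.70 ± 0.09 in SU-DHL6.

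Of 8 tested XPO1 adapters and docking pore proteins, 1 rose and 2 fell in OCI-LY3 (median 0.11), and 3 rose and 2 fell in SU-DHL6 (median -0.01). NMD3, the adapter that brings the large ribosomal subunit to XPO1, fell by 0.65 ± 0.11 in OCI-LY3 (adjusted p = 0.00037) and rose by 0.74 ± 0.11 in SU-DHL6 (adjusted p = 0.00014). LTV1, which works in export of the small subunit, was at -0.15 ± 0.14 in OCI-LY3 (adjusted p = 0.384) and rose by 1.25 ± 0.13 in SU-DHL6 (adjusted p = 5.61e-06). Of 14 tested genes of the NXF1 and NXT1 route of messenger RNA export, 2 rose and 6 fell in OCI-LY3 and 2 rose and 7 fell in SU-DHL6, both with a median of -0.26. DDX39A, a helicase of that route, fell by 1.51 ± 0.10 in OCI-LY3 and by 1.62 ± 0.10 in SU-DHL6. NXF1, the receptor that NXT1 pairs with, rose by 1.06 ± 0.11 in SU-DHL6 (adjusted p = 3.91e-06), where NXT1 fell, and was at 0.25 ± 0.11 in OCI-LY3 (adjusted p = 0.0772). A list of 3 tested genes of the RANGAP1 complex and other RAN binders did not pass the test in OCI-LY3 (median -0.26), and 1 rose and 2 fell in SU-DHL6 (median -0.51).

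**Figure D5:**
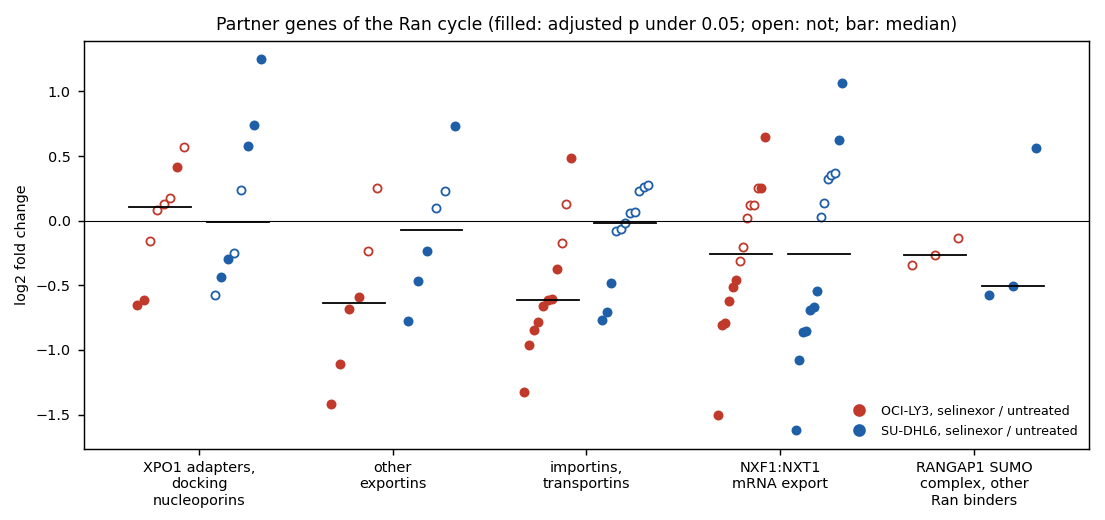
Log2 fold change with selinexor of every tested gene of the 5 partner lists, OCI-LY3 and SU-DHL6 side by side, with filled points for genes past the threshold and a bar at each list's median. Of 11 importins and transportins, 8 are called lower in OCI-LY3 and 3 in SU-DHL6.

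The genes whose pattern over the 12 libraries was most like that of XPO1 were sought among 7166 well-expressed genes by the root mean square difference of centred log2 CPM, so that 0 would be the same pattern. SLC16A6, a monocarboxylate transporter relative, came first at 0.201, and SLTM at 0.212, PREPL at 0.258 and the heat shock chaperone gene HSP90AA1 at 0.258 were also among the nearest. For RANBP3 the nearest were WDR1 (0.108), JADE2 (0.117) and ACTN4 (0.118), and for RAN they were SLC50A1 (0.146), MFSD2A (0.195) and OXA1L (0.207). Among the 9 genes, RANBP2 was nearest to XPO1, at 0.513. The libraries share line and treatment, which shape all of these values, so they are given as a description without a test.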

How the data were processed

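RNA was measured by sequencing of messenger RNA libraries in 4 groups of 3 libraries. The authors deposited 1 table with a read count and an FPKM value per gene and library, per the file headers. Per the submitters' processing notes the builds were GRCm38 and mm10, which are mouse builds, while the table holds human Ensembl identifiers, of which 58039 were found in GENCODE release 29 on GRCh38, with the same coordinates for all 9 genes. For the aligner, the counting program and its use of strand, nothing is given in the sources used here. The deposited FPKM values were the counts rescaled (checked over 9162 genes) and divide by lengths longer than the merged exons of 8 of the 9 genes, so they were not used for levels.

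The test used edgeR 4.0.16 in R 4.3.3: filterByExpr by group, TMM factors, 1 model with a coefficient per group over all 12 libraries, and the quasi-likelihood F test with Benjamini-Hochberg adjustment over 16474 genes. SE was taken as the absolute log2 fold change over the root of F. The test recovered known changes in simulated data where few genes changed, as many up as down, with the same spread for all genes. That simulation does not show how the test performs where many genes change, as in these libraries. CPM values carry mean ± SD over 3 libraries. In the main fit a p-value sets a fold change against a spread estimated over all 12 libraries and shared in part across genes. That spread is not the one of the compared libraries alone, and the p-values speak only for these libraries. Alternatives were RLE factors, library totals, no filter, DESeq2 1.42.0, limma-voom (limma 3.58.1), fits to 1 line at a time, a block for the replicate number, leaving out each library, and, chosen after seeing the data, offsets for GC content and length.

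The 9 genes and all lists were chosen with earlier results of these data known. All 9 genes are named, with the 2 genes of smallest adjusted p from each partner list and the genes of most similar pattern to XPO1, RANBP3 and RAN. SNHG3, TRMT2A, CENPT, the RGPD genes and the pseudogenes were added because they share reads or sequence with a member. Some genes that this rule selects are not reported here.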

Additional observations from a re-analysis of the deposited data

Results flagged for a closer look

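The response to selinexor differed between the lines, SU-DHL6 minus OCI-LY3, for 5 of the 9 genes by the edgeR test of the difference itself, against 36.9% of all tested genes. With library totals, and likewise with GC and length offsets, 3 of the 9 were called. XPO1 differed by 0.78 on the log2 scale (adjusted p = 0.00325), with log2 fold changes of 1.77 in SU-DHL6 and 0.99 in OCI-LY3. RANBP2 differed by 1.17 (adjusted p = 0.000885), with 1.48 in SU-DHL6 and 0.31 in OCI-LY3. RAN differed by -0.92 (adjusted p = 0.0106), with -0.97 in SU-DHL6 and -0.06 in OCI-LY3. RANBP3 differed by -1.21 (adjusted p = 1.62e-05), with -0.36 in SU-DHL6 and 0.86 in OCI-LY3. NXT1 differed by -0.44 (adjusted p = 0.0366), with -0.84 in SU-DHL6 and -0.40 in OCI-LY3. Dose and time are not tied to a line in the labels, so the line and the treatment given to it cannot be told apart in these differences.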

How the results depend on the processing

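Over the 5 comparisons and the alternatives, 592 of 657 fold changes of the 9 genes kept their direction and their side of the threshold, 30 lost a call, 8 gained one and 27 changed sign. The XPO1 rise kept its call in both lines under every alternative run. The difference of responses moved most: 3 of the 9 genes were called, in place of 5, with library totals and with GC and length offsets, beside 6708 and 6252 of all 16474 genes, in place of 6072. XPO1 differed between the responses by 0.27 and between the treated lines by -0.11 with those offsets, both no longer called, and between the untreated lines by 0.36 without the first untreated SU-DHL6 library, which was called (0.15 to 0.36 with each library left out). With library totals, the difference of responses changed sign to 0.32 for RANBP1 and 0.23 for RCC1, and the treated lines to -0.19 for NXT1 and -0.40 for NUTF2. With GC and length offsets, the difference changed sign to 0.30 for RANBP1, 0.12 for RCC1 and 0.0013 for NXT1, the untreated lines to -0.16 for RANGAP1, and the treated lines to -0.047 for RANGAP1, -0.25 for NXT1 and -0.15 for NUTF2. Library totals moved the median of all tested genes to 0.27 in the SU-DHL6 response, 0.35 in the difference and -0.47 between the treated lines, and the offsets moved it to -0.15 between the untreated and -0.22 between the treated lines. Relative to that median, RANBP1 was at -0.04, RCC1 at -0.12 and NXT1 at -0.42 in the difference with library totals, and NXT1 at 0.29 and NUTF2 at 0.07 between the treated lines. Leaving out 1 library at a time gave ranges across 0 for RAN (-0.27 to 0.14) and NUTF2 (-0.023 to 0.45) in OCI-LY3, for NUTF2 in SU-DHL6 (-0.017 to 0.34), for NUTF2 (-0.26 to 0.22), RANBP1 (-0.20 to 0.027) and RCC1 (-0.29 to 0.064) in the difference, and for NUTF2 between the untreated (-0.20 to 0.24) and the treated lines (-0.11 to 0.28). Library totals differ from the main fit only in leaving out the TMM factors, which shifts all genes by nearly the same amount. The values relative to the median with library totals are thus no separate support. Why the TMM factors differ between the groups was not tested, nor was the cause of the other shifts.

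Deviations from the group mean had correlations of -0.14 to 0.07 over pairs of libraries with the same replicate number. Over differently numbered pairs the correlations were -0.09 to 0.14. With 3 libraries per group, these values cannot show whether the cultures were paired. With the replicate number as a block, 6585 genes were called in OCI-LY3, in place of 7321, and 6360 in SU-DHL6, in place of 7123, with 5 and 8 of the 9 genes. The block ended the calls of RANGAP1 in OCI-LY3 and of NXT1 in the difference (adjusted p = 0.0988) and between the treated lines (adjusted p = 0.0734).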
